A study of Mus musculus with 19 samples.

Results

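The comparison set 2 induced pluripotent stem cell (iPSC) lines of one genotype against each other: colony 1 and colony 2 of mouse iPSC lacking the miR-290 microRNA cluster. Its members were the 4 libraries labelled with this genotype and a colony number, 2 per colony, out of 19 libraries in the series. The values compared were differences between log2 expression values, with wild-type (WT) iPSC as a reference only. Both colonies were miR-290KO iPSC, reprogrammed from embryonic fibroblasts (MEFs) by Oct4, Sox2 and Klf4, grown with LIF and serum and collected more than 18 passages later. The WT reference was 3 iPSC libraries handled the same way, which may all come from a single derivation, and 2 libraries of miR-290KO embryonic stem cells (ESC) gave a second one. Each colony is 1 line from an independent derivation. A difference between them therefore describes 2 lines, and the p-values measure the spread between libraries labelled as one line, which may be technical. That spread was pooled over all 19 libraries of the series. Of the rest, miR-302KO iPSC (colonies 1 and 2) and miR-302KO ESC lacked the miR-302 cluster. Double KO iPSC (colonies 1 and 2) lacked both clusters. Expression was measured by QuantSeq, which reads the 3' end of polyadenylated RNA, and levels are given as CPM, the reads of a gene scaled to a common library total.

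Lines made by reprogramming carry the history of the single cell they grew from. Imprinted genes, which are expressed from only one parental copy, can lose their parental marks on the way, and the Dlk1-Dio3 region is the one best known for this in mouse iPSC: in some lines its maternally expressed noncoding RNAs are silent. Long culture of pluripotent cells can also select for gains or losses of chromosome segments.

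The cluster missing from both lines encodes microRNAs that share a seed, the bases that pair with target RNAs, with the miR-302 cluster. They are shown because the same deletion is what the colonies have in common. The mature sequences of 4 of its members, from RefSeq on the GRCm38.p6 assembly, are written 5′ to 3′ with the seed (bases 2 to 8) in capitals.
mmu-miR-291a-3p: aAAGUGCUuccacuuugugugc
mmu-miR-294-3p: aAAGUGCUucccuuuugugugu
mmu-miR-295-3p: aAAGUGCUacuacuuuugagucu
mmu-miR-290a-3p: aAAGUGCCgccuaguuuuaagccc
They lie on the plus strand at chr7:3218968-3218989, chr7:3220691-3220712, chr7:3220815-3220837 and chr7:3218674-3218697. The first 3 share the seed AAGUGCU, which 5 of 1738 mature mouse miRNAs in the table carry, and the last ends its seed in another base.

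The second sequence shown is the promoter of Meg3, the gene with the largest difference between the colonies. RefSeq gives it at chr12:109540746-109541045 on the plus strand, 250 bases before the start of the gene to 50 after it.
Meg3 promoter: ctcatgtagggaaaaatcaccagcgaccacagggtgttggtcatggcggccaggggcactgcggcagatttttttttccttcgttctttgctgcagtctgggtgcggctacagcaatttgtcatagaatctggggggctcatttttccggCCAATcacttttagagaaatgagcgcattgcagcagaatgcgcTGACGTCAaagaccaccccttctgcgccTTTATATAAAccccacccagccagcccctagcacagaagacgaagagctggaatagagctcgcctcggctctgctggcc
The capitals mark matches to 3 motifs searched on both strands. CCAAT begins 100 bases before the gene's start, TGACGTCA, the palindrome bound by CREB proteins, begins 57 bases before it, and TATAAA was found on both strands at 25 and 29 bases before it, where the matches overlap. Among 32851 promoters of the same length, 1.79% held TGACGTCA, 37.4% CCAAT and 13.6% TATAAA. The Meg3 promoter had 13 CG dinucleotides, the Mirg promoter 10 and the Rian promoter 0, beside a median of 7, and of the 3 motifs the Mirg promoter held CCAAT only and the Rian promoter none.

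Recovered depth was 22099954 and 15813844 reads in colony 1 and 24973627 and 6435811 in colony 2, which holds both the highest and the lowest total of the series. At 3 reads over both libraries of colony 2, a gene without reads there lay under 0.096 CPM, and this floor covers counting error only. Libraries of one colony differed by a median absolute log2 value of 0.306 in colony 1 and 0.445 in colony 2, and libraries of different colonies by 0.375 to 0.558. One library of another genotype, miR-302KO colony 1 library 2, stood apart, with a median of 0.996 from its partner against 0.194 to 0.445 in the other groups, the colony 2 value being the next highest. It entered the pooled estimate of the spread, so counts are given with and without it. Libraries labelled as one miR-302KO iPSC colony also differed in Ddx3y, a Y-linked gene. It had 0 and 12.99 CPM in miR-302KO colony 1 and 12.16 and 0.295 CPM in miR-302KO colony 2. Y-linked Eif2s3y had 3.53 and 0.0492 CPM in miR-302KO colony 2 against 0 and 0.271 CPM in miR-302KO colony 1. The pooled spread thus includes libraries that may not be alike, and the miR-302KO colony 2 pair stays in both fits. The cause was not tested.

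Neither colony could be checked for the deletion itself, because its extent is not given in the sources used here. D7Ertd143e, a noncoding transcript whose annotated span (3218784 to 3221015 on chromosome 7) overlaps the cluster (3218626 to 3220841), measured 50.9 and 36.9 CPM in colony 1, 59.5 and 53.5 CPM in colony 2 and 136.9, 177 and 161.6 CPM in WT. Both colonies lay below all WT libraries and near the miR-290KO ESC, at 58.1 and 46.6 CPM. The colonies did not pass the test against each other (log2 difference -0.38, limma adjusted p = 0.734).

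Between the colonies, 10 of 12778 genes passed an adjusted p of 0.05 (0.0783%), 3 higher in colony 1 (0.0235%) and 7 lower (0.0548%). The 3 higher genes are the noncoding RNAs Meg3, Rian and Mirg of the Dlk1-Dio3 region on chromosome 12. Of the 7 lower genes, 5 lie on chromosome 18 (Wac, Usp14, Osbpl1a, Galnt1 and Elp2), and the others are Raly on chromosome 2 and 2810417H13Rik on chromosome 9. All 10 differed by at least 1 on the log2 scale. With each library centred per chromosome, 8 genes passed, 6 higher in colony 1 and 2 lower. Without the miR-302KO library that stood apart, 215 genes passed (1.68%), 129 higher in colony 1 (1.01%) and 86 lower (0.673%), and these included all 10. That library often lay with colony 2: in 181 of the 205 genes added (88.3%) it differed from its partner in the direction in which colony 2 differed from colony 1, beside 66.7% of all genes. Leaving it out thus removed a library that shows many of the added differences itself, although neither Meg3, Rian nor Mirg was low in it. How it came to stand apart was not tested. Library 1 of miR-302KO colony 2, which stayed in that fit, leaned the same way in some added genes. It had 316.8 CPM of Cdk1 and 204.5 CPM of Tkt, against 687.7 and 92.0 CPM in its partner. For Cyb5r3 and Gldc, also added, it did not, at 219.3 and 29.5 CPM against 191.2 and 20.7 CPM. With only the 4 libraries of the colonies in the fit, 8 genes passed, 3 of them from the 10: Meg3, Rian and Mirg. At an unadjusted p under 0.05 there were 1141 genes (8.93%), 540 higher in colony 1 (4.23%) and 601 lower (4.7%). The 4 libraries of the colonies did not overlap in 6009 genes (47%). In data simulated on this design, each gene had the same spread in every library. Changes of 2 on the log2 scale were recovered in 49.8% and changes of 1 in 8.4%, so smaller differences were mostly not detectable there.

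**Figure D1:**
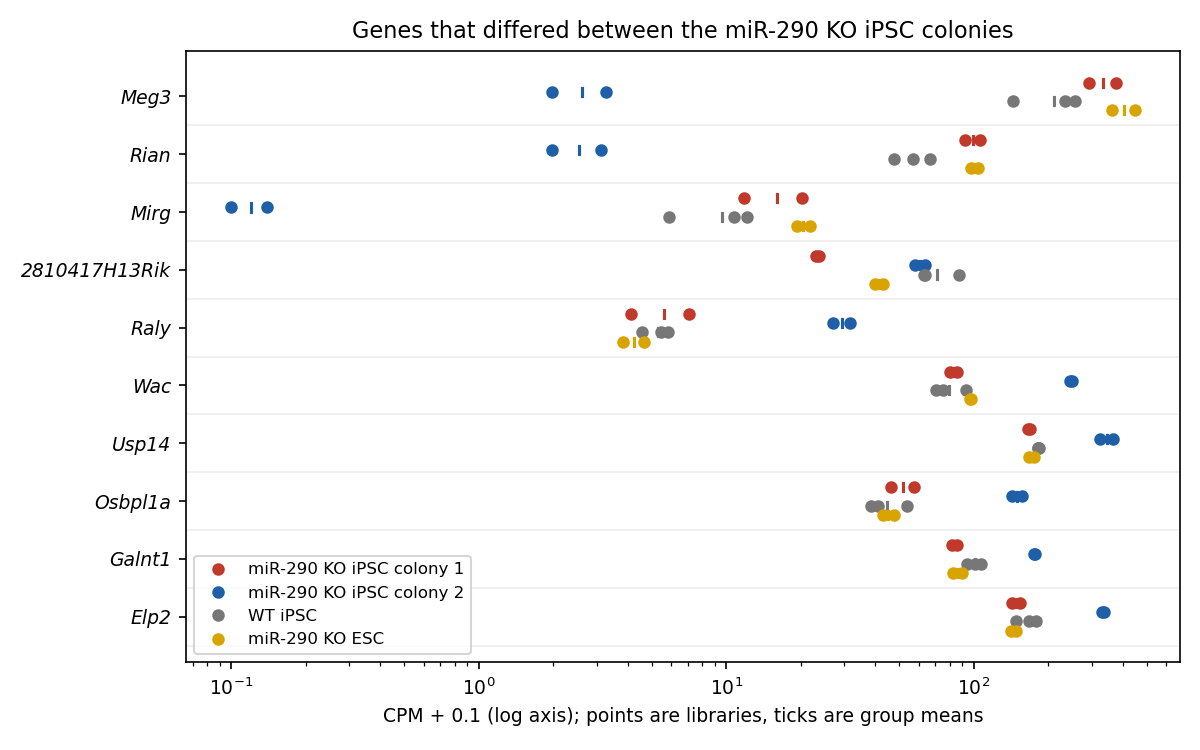
CPM plus 0.1 on a log axis for the 10 genes that passed the test, with 1 point per library and a tick at each group mean, for both colonies, WT iPSC and miR-290KO ESC. Colony 2 stands apart from WT in 9 genes, while for 2810417H13Rik it is colony 1, at 22.97 and 23.57 CPM.

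Against WT, most of the difference lay with colony 2. In 5 of the 10 genes only colony 2 was outside the range of the 3 WT libraries, in 4 the colonies lay outside it on opposite sides, in 1 only colony 1 was outside, and in 0 both lay inside. Over all 12778 genes the same counts were 2905, 287, 2107 and 4736, with both colonies outside on the same side in 2743. Of the 215 genes, only colony 2 was outside in 118 and only colony 1 in 16.

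Meg3, a maternally expressed long noncoding RNA (chromosome 12, 109540996 to 109571729), measured 292 and 375.4 CPM in colony 1, 3.18 and 1.87 CPM in colony 2 and 233.2, 256.6 and 143.8 CPM in WT. Colony 1 was above every WT library and colony 2 far below them, with no overlap. The means were 334 ± 59.0 and 2.53 ± 0.925 CPM (SD, n = 2 each), and the log2 difference was 7.001 ± 0.35 (SE, limma adjusted p = 8.44e-08), which is 128-fold. Transcripts of Meg3 were still detected in colony 2, with 91 reads against 12433 in colony 1.

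Rian, a maternally expressed host of small nucleolar RNAs and microRNAs (109603945 to 109661716), had 92.3 and 106.5 CPM in colony 1, 3.02 and 1.87 CPM in colony 2 and 47.5 to 66.6 CPM in WT. Its groups were ordered as for Meg3, without overlap, and the log2 difference was 5.30 ± 0.28 (SE, limma adjusted p = 8.44e-08), from 3737 and 87 reads. Mirg, the maternally expressed host of a large microRNA cluster (109734981 to 109749458), measured 11.7 and 20.1 CPM in colony 1, 0.04 CPM and 0 in colony 2, and 5.79 to 11.99 CPM in WT. Colony 2 had a single read of Mirg, all in library 1, and colony 1 had 579. The log2 difference of 6.59 ± 0.45 (SE, limma adjusted p = 2.28e-06) depends on the prior added to the counts. The ratio of CPM over the summed reads was 476.1, with an exact 95% interval of 85.1 to 18835.7 for counting error.

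Between the start of Meg3 and the end of Mirg, a span of 208.5 kb, the RefSeq table places 112 mature sequences from 60 microRNA genes, 57 of which also have a hairpin entry, with 2 genes within Meg3, 3 within Rian and 10 within Mirg. MicroRNAs were not measured by these libraries. The transcript 6430411K18Rik, antisense to Rtl1 and also maternally expressed, lies in the same span. It had 1.22 and 2.63 CPM in colony 1, 0 in both libraries of colony 2 and 0.62 to 0.79 CPM in WT. At the floor of 3 reads in colony 2 its level was at least 20.1-fold higher in colony 1, from 69 reads against 0, but it did not pass the test (limma adjusted p = 0.197, and 0.0218 without the library that stood apart, in which it had 0.0902 CPM against 1.72 CPM in its partner). In these 4 transcripts colony 1 was above every WT library, except Mirg in 1 library, and colony 2 below them all. AF357425, a short transcript annotated within Rian (109636012 to 109636080), was not ordered this way: it had 0.0453 and 1.44 CPM in colony 1, on either side of WT at 0.106 to 0.621 CPM, and 0 in colony 2 (limma adjusted p = 0.674).

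The protein-coding genes that flank them are expressed from the paternal copy and did not pass the test. Dlk1, a transmembrane ligand related to Notch ligands, measured 5.03 and 5.77 CPM in colony 1, 0.523 and 2.81 CPM in colony 2 and 2.54 to 5.03 CPM in WT (log2 difference 1.98, limma adjusted p = 0.551). Dio3, the deiodinase that inactivates thyroid hormone, had 11.6 and 7.65 CPM in colony 1 and 8.65 and 8.11 CPM in colony 2. Both colonies were below the WT libraries, at 16.4 to 25.9 CPM, and the colonies overlapped (log2 difference 0.16, limma adjusted p = 0.938). Before Dlk1, Yy1, a zinc finger transcription factor, had 148.7 and 121.2 CPM in colony 1 and 93.4 and 99.8 CPM in colony 2 (log2 difference 0.48, limma adjusted p = 0.574). The 4 measured genes between Yy1 and Dlk1 had log2 differences of 0.26 for Slc25a29, -1.87 for Slc25a47, -0.18 for Wars and -0.35 for Wdr25, and 0 passed (limma adjusted p from 0.651 to 0.951). The libraries of the colonies were separate for Slc25a47, with colony 2 the higher, at 0.136 and 0.313 CPM against 1.69 and 0.78 CPM. Beyond Dio3, Ppp2r5c, a regulatory subunit of protein phosphatase 2A, had 130.2 and 127 CPM in colony 1 and 126.5 and 151.7 CPM in colony 2 (log2 difference -0.11, limma adjusted p = 0.882).

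**Figure D2:**
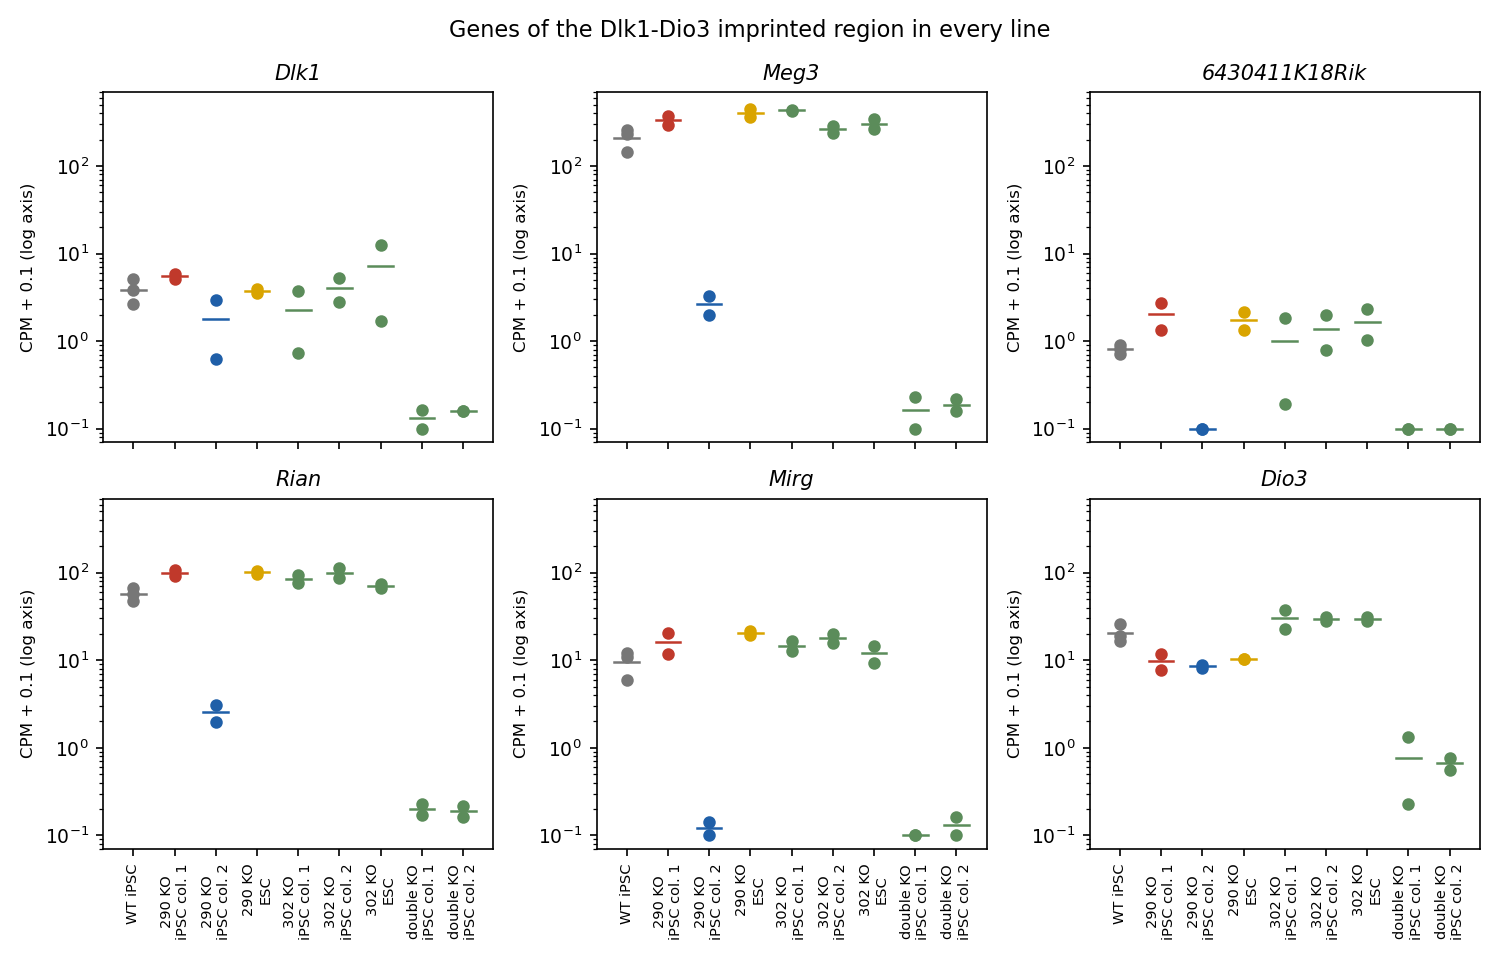
CPM plus 0.1 on a log axis for 6 genes of the Dlk1-Dio3 region, with 1 point per library and a bar at each group mean, for all 9 lines. Meg3, Rian, Mirg and 6430411K18Rik are low in miR-290KO iPSC colony 2 (blue) and in both double KO colonies, while Dio3 in colony 2, at 8.65 and 8.11 CPM, is near its level in colony 1 and the miR-290KO ESC.

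Among the other lines, the 2 miR-302KO iPSC colonies and both ESC lines had Meg3 at 238.2 to 447.1 CPM, as colony 1 did. Both colonies of iPSC lacking miR-290 and miR-302 (double KO) had Meg3 between 0 and 0.127 CPM, Rian between 0.0603 and 0.127 CPM and Mirg between 0 and 0.0603 CPM. Meg3 and Rian were thus lower there than in colony 2, where both libraries held between 1.87 and 3.18 CPM. Dio3 also set them apart, at 0.127 to 1.22 CPM in the double KO libraries. The pluripotency genes Pou5f1 and Nanog were low in the double KO libraries, at 21.4 to 30.1 CPM and 1.81 to 2.86 CPM. Colony 2 had 2446 and 1494 CPM of Pou5f1 and 406.3 and 492.7 CPM of Nanog. Xist, the noncoding RNA of X inactivation, was at 610.5 to 662.6 CPM in the double KO libraries against 4.35 and 0.468 CPM. The double KO lines and colony 2 are thus not cells of a like state. These values are set side by side and were not tested.

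On chromosome 18, 313 genes had a median log2 difference of -0.41 between the colonies, against 0.109 over the genes outside it. The 4 pairings of a colony 1 with a colony 2 library gave -0.53 to -0.295. The median was between -0.036 on chromosome 7 and 0.236 on chromosome 15 for every other autosome and X. Relative to the WT mean, the median of the chromosome was 0.212 and 0.13 in colony 1, 0.547 and 0.723 in colony 2, and -0.043 to 0.088 in the WT libraries. Both colony 2 libraries were the high ones. Without the miR-302KO library that stood apart, 12.1% of the chromosome's genes passed the test, 31 lower in colony 1 and 7 higher, against 1.41% elsewhere. That library did not show the same chromosome-wide level: over 244 genes before 80 Mb its median was -0.228 from the WT mean, and it lay on colony 2's side of its partner in 45.5% of them.

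The difference was uneven along the chromosome. Windows of 10 Mb that held at least 10 genes with a mean of 50 reads, a division chosen after the chromosome median had been seen, gave 242 windows. The 233 on other chromosomes had medians from -0.282 to 0.675. On chromosome 18, the first 8 windows all lay below 0, and 7 of them had a median lower than any window elsewhere. The lowest, from 20 to 30 Mb with 24 genes, reached -1.073, and the one before it -0.833. In the lowest window the medians relative to WT were 0.446 and 0.133 in colony 1 and 1.166 and 1.132 in colony 2.

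The last window, from 80 Mb with 20 genes, went the other way, at 0.877 and above every other window. Its medians relative to WT were 0.224 and 0.132 in colony 1 and -0.859 and -0.884 in colony 2, so that colony 2 was below WT there and above it along the rest of the chromosome. Split at 80 Mb, 202 of 244 genes before it (82.8%) were lower in colony 1 by sign and 20 of 21 genes after it (95.2%) were higher, beside 42.2% lower and 57.8% higher on other chromosomes. Both colony 2 libraries were above all WT libraries in 64.8% of the genes before 80 Mb and below them all in 76.2% after it, while on other chromosomes these shares were 28.3% and 18.9%. For colony 1, 28.3% of genes before 80 Mb were above WT and 19% after it below WT, beside 30.6% and 10.8% on other chromosomes. DNA copy number was not measured, and its part in these values was not tested.

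**Figure D3:**
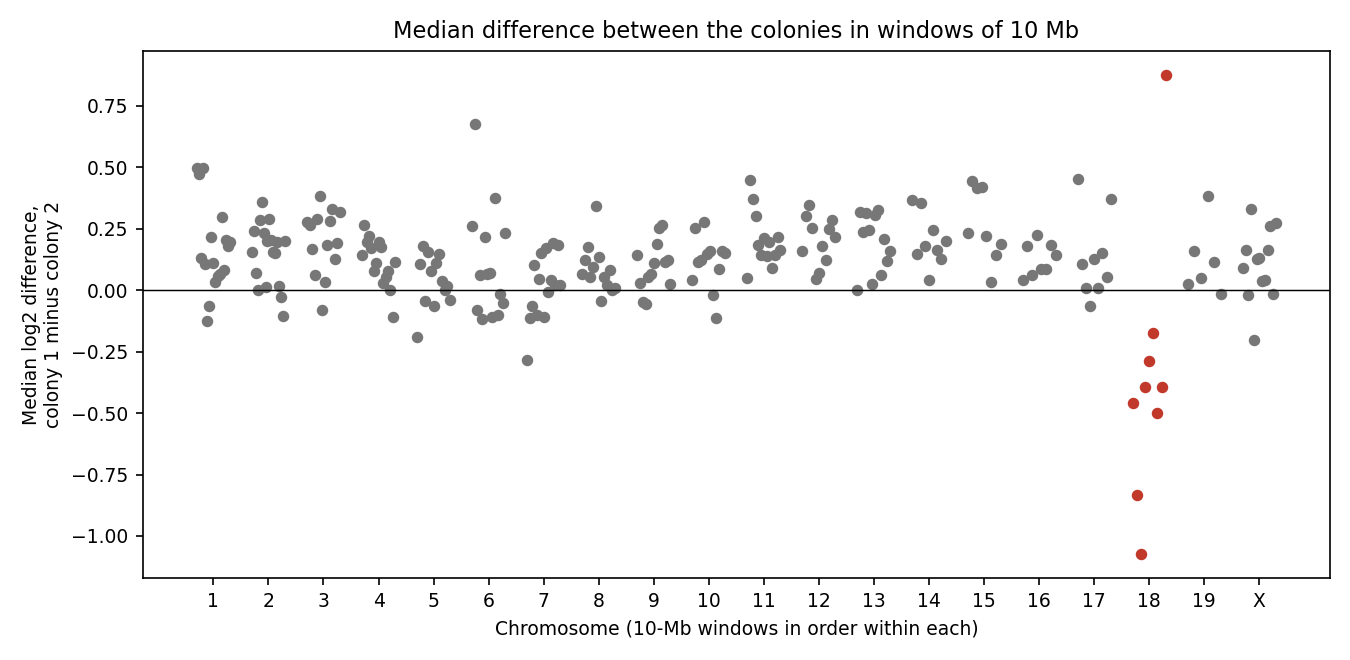
Median log2 difference (colony 1 minus colony 2) in each window of 10 Mb, in chromosome order, with chromosome 18 in red. Of the 9 windows of chromosome 18, 8 lie below 0 and the last, at 0.877, is the highest of all 242.

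**Figure D4:**
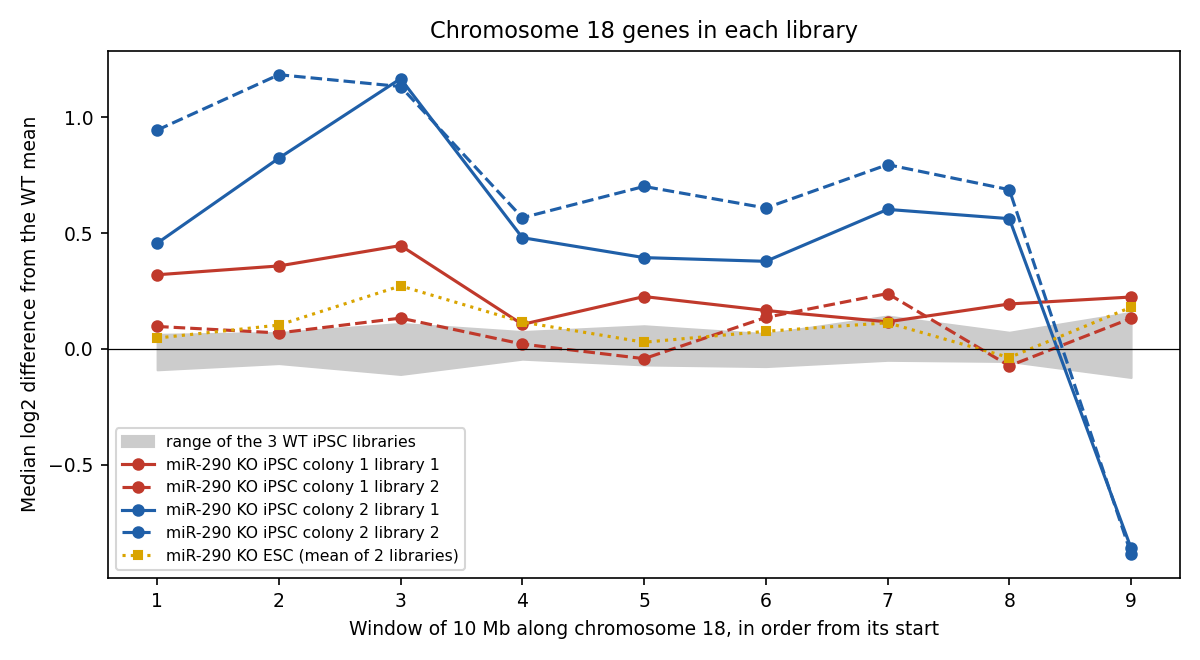
Median log2 difference from the WT mean in the 9 windows along chromosome 18, for each library of both colonies, the mean of the miR-290KO ESC libraries and the range of the WT libraries (grey). Both colony 2 libraries are above the grey band in the first 8 windows and fall to -0.859 and -0.884 in the last.

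The 5 chromosome 18 genes that passed the test lie in its first 30 Mb. Wac, an adaptor protein in histone H2B ubiquitination (7868825 to 7929028), had 80.4 and 85.9 CPM in colony 1, 249.5 and 246.2 CPM in colony 2 and 70.7 to 92.7 CPM in WT. Colony 1 was within the WT range and colony 2 about 2.98-fold higher than colony 1 (log2 difference -1.58 ± 0.18, SE, limma adjusted p = 0.00129). Usp14, a deubiquitinase of the proteasome (9993615 to 10030149), had 165.8 and 168.4 CPM in colony 1, 323.9 and 366.4 CPM in colony 2 and 182.0 to 183.7 CPM in WT. The WT libraries lay between the colonies (log2 difference -1.04 ± 0.17, SE, limma adjusted p = 0.0298).

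Osbpl1a, an oxysterol-binding protein family member (12753898 to 12941871), measured 57.5 and 46.1 CPM in colony 1, 143.2 and 156.4 CPM in colony 2 and 38.3 to 53.9 CPM in WT, and its log2 difference was -1.54 ± 0.26 (SE, limma adjusted p = 0.0435). Galnt1, an enzyme that starts O-linked glycans (24205321 to 24286816), had 85.8 and 82.0 CPM in colony 1, 176.7 and 175.3 CPM in colony 2 and 94.2 to 107.5 CPM in WT. Its log2 difference was -1.068 ± 0.17 (SE, limma adjusted p = 0.0345). Elp2, a subunit of the Elongator complex that modifies tRNA (24603961 to 24638830), measured 143.3 and 153.2 CPM in colony 1, 337.7 and 331.5 CPM in colony 2 and 148.9 to 179.0 CPM in WT, a log2 difference of -1.17 ± 0.18 (SE, limma adjusted p = 0.0185). In all 5 the libraries of colony 2 were above every library of colony 1 and of WT. Leaving out any 1 colony library ended the calls of Usp14, Osbpl1a, Galnt1 and Elp2 (limma adjusted p from 0.116 to 0.524), while Wac passed in all 4 such fits. With only the 4 colony libraries in the fit 0 of the 5 passed: the adjusted p of the Wac log2 difference was 0.0906 by limma and that of the Usp14 log2 difference 0.194, with the others between. With each library centred on its median for the chromosome, the Wac log2 difference was -1.111 (limma adjusted p = 0.0894), the Usp14 log2 difference was -0.579 (limma adjusted p = 0.433) and 0 of the 5 genes passed.

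Other genes of the first 80 Mb, named after their values were seen, passed in the fit without the library that stood apart but not with every library. Rock1, a kinase of the actomyosin cytoskeleton, had 186.6 and 110.8 CPM in colony 1 and 346.3 and 432.2 CPM in colony 2 (limma adjusted p = 0.0694, and 0.0148 without that library). Mapre2, a microtubule end-binding protein, had 50.0 and 43.1 CPM in colony 1 and 117 and 112.7 CPM in colony 2 (limma adjusted p = 0.0968, and 0.00814). In both genes the 2 libraries of colony 2 were above colony 1, and both colonies were above WT. The library left out was not high in either, at 135.3 CPM for Rock1 and 16.4 CPM for Mapre2, below its partner.

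After 80 Mb, 0 genes passed the test and 7 did so without that library, which in 5 of these 7 lay on colony 2's side of its partner. Fbxo15, an F-box gene expressed in pluripotent cells, had 75.0 and 73.0 CPM in colony 1, 14.9 and 22.5 CPM in colony 2 and 125.3 to 141.9 CPM in WT (log2 difference 2.01, limma adjusted p = 0.281, and 0.000562 without that library). Both colonies were below WT, colony 2 the lower. Cyb5a, the electron carrier cytochrome b5, had 95.7 and 115.3 CPM in colony 1 and 36.3 and 38.1 CPM in colony 2 (log2 difference 1.495, limma adjusted p = 0.191, and 0.00481). Timm21, a subunit of the mitochondrial import machinery, had 26.5 and 19.3 CPM in colony 1 and 3.10 and 6.55 CPM in colony 2 (log2 difference 2.29, limma adjusted p = 0.498, and 0.0161). The library left out was low in all 3 of these genes, like colony 2: against its partner it had 23.6 and 144.5 CPM of Fbxo15, 22.7 and 60 CPM of Cyb5a, and 0.451 and 13.8 CPM of Timm21.

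Raly, an RNA-binding protein of the hnRNP family (chromosome 2, 154790920 to 154871010), measured 6.98 and 4.01 CPM in colony 1, 31.7 and 27.0 CPM in colony 2 and 4.49 to 5.72 CPM in WT. Colony 1 spanned the WT range, the miR-290KO ESC had 3.72 and 4.55 CPM, and colony 2 was above them all (log2 difference -2.43 ± 0.36, SE, limma adjusted p = 0.0155). The double KO libraries, at 14.5 to 19.5 CPM, were between. 2810417H13Rik, which RefSeq names Pclaf and which encodes a PCNA-binding factor of DNA replication (chromosome 9, 65890323 to 65903551), was the only gene of the 10 in which colony 1 alone left the WT range. It had 22.97 and 23.57 CPM in colony 1, 57.8 and 63.6 CPM in colony 2, 63.2 to 86.8 CPM in WT and 40.03 and 42.75 CPM in the miR-290KO ESC. Colony 1 was the lowest line for this gene (log2 difference -1.38 ± 0.19, SE, limma adjusted p = 0.00814). Leaving out a colony library ended the call for 2810417H13Rik in all 4 fits, with adjusted p from 0.0742 to 0.108, and for Raly in 3 of 4. With only the 4 colony libraries in the fit, neither passed: the adjusted p of the Raly log2 difference was 0.119 and that of the 2810417H13Rik log2 difference 0.188.

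Both lines carried the labelled cell type's markers. All 30 pluripotency genes on the list were measured, with sums of 8499.6 and 7149.3 CPM in colony 1, 10008.7 and 8065.2 CPM in colony 2 and 6699.4 to 8806.8 CPM in WT. Of these, 0 passed the test, and the median log2 difference was 0.021 beside 0.097 over all genes. Without the library that stood apart, 2 passed as higher in colony 1 and 2 as lower. Of 24 fibroblast markers, the source cells' type, 9 were measured. Their sums were 41.8 and 61.3 CPM in colony 1 and 47.2 and 44.8 CPM in colony 2. All WT libraries were lower, at 23.5 to 28.6 CPM, which was not tested. Among these markers, Col1a1, a main collagen of fibroblasts, had 0.272 and 0.94 CPM in colony 1 and 0 and 1.56 CPM in colony 2.

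Pou5f1, the gene of the reprogramming factor Oct4, had 909.9 and 693.9 CPM in colony 1, 2446 and 1494 CPM in colony 2 and 500.8 to 743.5 CPM in WT. Both colony 2 libraries were above the other 5, and the log2 difference of -1.27 did not pass the test (limma adjusted p = 0.46, and 0.0461 without the library that stood apart). That library was as high as colony 2, with 2453 CPM against 626.9 CPM in its partner. Tags from a reprogramming transgene and the gene's own copy were not separated. Sox2 measured 376.5 and 284.1 CPM in colony 1 and 419.7 and 402.6 CPM in colony 2, and Klf4 139.9 and 59.5 CPM against 132.7 and 87.8 CPM. Both are core regulators and reprogramming factors, and for Klf4 the colonies overlapped.

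Nanog, a homeodomain factor of the naive state, had 672.8 and 451.6 CPM in colony 1 and 406.3 and 492.7 CPM in colony 2, which overlap. Zfp42, a zinc finger marker of the naive state, had 184.6 and 116.7 CPM against 138.7 and 153.3 CPM, again overlapping. Esrrb, an orphan nuclear receptor, had 262.4 and 229.4 CPM against 187.1 and 170.3 CPM, with colony 2 the lower (log2 difference 0.46, limma adjusted p = 0.729). Stat3, which carries the LIF signal, had 80.2 and 84.4 CPM in colony 1 and 39.4 and 39.5 CPM in colony 2, with WT at 59.2 to 80.1 CPM (log2 difference 1.06, limma adjusted p = 0.487, and 0.0435 without the library that stood apart, which at 27.1 CPM against 95.5 CPM in its partner was also low).

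**Figure D5:**
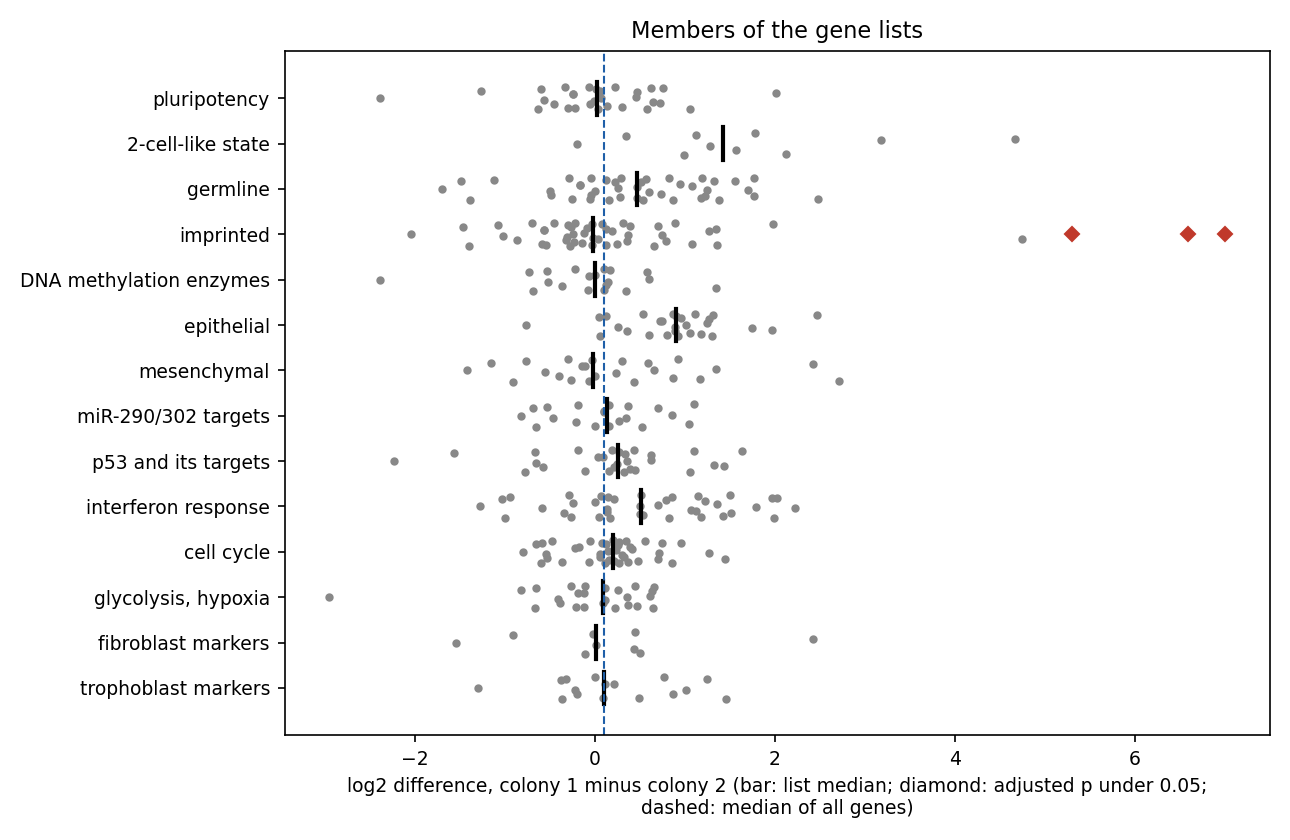
Log2 difference (colony 1 minus colony 2) of each member of 14 gene lists, as points, with the list median as a bar, the median of all genes (0.097) as a dashed line and genes that passed the test as red diamonds. The only diamonds are Meg3, Rian and Mirg among the imprinted genes, while the epithelial and 2-cell-like medians lie farthest to the right.

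Of 65 imprinted genes listed, those of the chromosome 12 region included, 50 were measured, with a median of -0.024. The 3 that passed as higher in colony 1 were Meg3, Rian and Mirg, and 0 passed as lower. Imprinted genes outside the chromosome 12 region thus gave no further call. Peg3, a paternally expressed zinc finger gene, had 58.7 and 23.1 CPM in colony 1, 115.4 and 89.8 CPM in colony 2 and 8.11 to 16.5 CPM in WT (limma adjusted p = 0.443). Copg2, a coat protein gene of the Mest region, had 46.2 and 38.2 CPM against 83.3 and 95.3 CPM (limma adjusted p = 0.229, and 0.0345 without the library that stood apart). Mcts2, a paternally expressed retrogene, had 59.6 and 45.5 CPM against 19.3 and 21.4 CPM (limma adjusted p = 0.104, and 0.0167). The library left out had 52.0 CPM of Copg2 against 33.4 CPM in its partner and 39.2 CPM of Mcts2 against 57.0 CPM, between its partner and colony 2 for both. Each of these sets of colony libraries was separate, Peg3 and Copg2 with colony 2 high and Mcts2 with colony 2 low. Impact, an imprinted gene on chromosome 18, had 90.9 and 65.1 CPM in colony 1 and 120.8 and 201.9 CPM in colony 2 (limma adjusted p = 0.386).

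The enzymes and binding proteins of DNA methylation had a median difference of 0.004 over 19 genes, and 0 passed. Zfp57, the zinc finger protein that holds methylation at imprinted control regions, had the largest difference of the list, with 16.8 and 10.2 CPM in colony 1, 66.6 and 71.7 CPM in colony 2 and 13.3 to 20.4 CPM in WT. Colony 2 was above every WT library, and the log2 difference of -2.39 ± 0.43 (SE) missed the threshold (limma adjusted p = 0.0694, and 0.00814 without the library that stood apart, which was itself above WT, at 40.4 CPM against 18.2 CPM in its partner). The cofactor Trim28 had 1583 and 1404 CPM in colony 1 and 2251 and 1333 CPM in colony 2, which overlap (log2 difference -0.22, limma adjusted p = 0.854).

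Epithelial genes had a median log2 difference of 0.898 over the 28 measured of 32, and 27 of 28 were higher in colony 1 by sign, beside a median of 0.097 and 56.8% over all genes. Of these, 0 passed the test, in either fit, and at an unadjusted p under 0.05 there were 4 higher and 1 lower. Esrp1, an epithelial splicing regulator, had 10.4 and 22.8 CPM in colony 1 and 2.86 and 2.50 CPM in colony 2 (log2 difference 2.47, limma adjusted p = 0.352). Epcam, an adhesion molecule, had 94.1 and 122.5 CPM in colony 1 and 38.6 and 63.3 CPM in colony 2 (log2 difference 1.12, limma adjusted p = 0.418). For both genes colony 1 was the higher in each library. Dsg2, a desmosomal cadherin on chromosome 18, was the 1 member with the opposite sign, at 152.4 and 90.1 CPM against 199.1 and 200.5 CPM.

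Keratins of this list were uneven between libraries of one line. Krt8 had 117 and 507 CPM in colony 1, 96.3 and 184.3 CPM in colony 2 and 36.4, 226.7 and 44.6 CPM in WT, and Krt18 had 66.8 and 318.2 CPM, 56.0 and 93.6 CPM, and 24.2, 153.6 and 21.6 CPM. Library 2 of colony 1 was the highest of the 7 for both. The trophoblast marker list, which holds both keratins, summed to 403.5 and 1151.4 CPM in colony 1, 359.7 and 536.1 CPM in colony 2 and 202.0 to 642.6 CPM in WT over 16 of 21 genes. Of its defining regulators, Cdx2 measured 4.08 and 2.26 CPM in colony 1, 6.64 and 2.18 CPM in colony 2 and 1.89 to 5.52 CPM in WT, and Eomes 11.3 and 12.8 CPM, 11.9 and 20.1 CPM, and 10.5 to 13.04 CPM. The colonies overlapped for both, and no measured member of the list was at 0 in either colony. The part of such cells in the epithelial values was not tested, and in bulk RNA fewer cells of a type and less RNA per cell cannot be told apart.

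Mesenchymal genes had a median of -0.017 over 24 genes, with 0 that passed. By sign 11 of the 24 were higher in colony 1, beside 56.8% over all genes. At an unadjusted limma p under 0.05, 3 were higher in colony 1 and 1 lower, beside 4.23% and 4.7% of all genes. The list as a whole thus did not follow the 2 chromosome 18 members named next. Zeb1, a repressor of epithelial genes that lies on chromosome 18, had 23.7 and 13.5 CPM in colony 1, 56.9 and 40.9 CPM in colony 2 and 12.8 to 16.6 CPM in WT (log2 difference -1.42, limma adjusted p = 0.352, and 0.0362 without the library that stood apart, where Zeb1 was as high, at 55.0 CPM against 17.7 CPM in its partner). Cdh2, N-cadherin, also on chromosome 18, had 20.8 and 16.1 CPM against 50.2 and 33.1 CPM (log2 difference -1.15, limma adjusted p = 0.658). In both, colony 2 was above colony 1 and above WT. Cdh1, E-cadherin, had 404.3 and 500.2 CPM in colony 1, 337.6 and 261 CPM in colony 2 and 457.2 to 655.7 CPM in WT (log2 difference 0.60, limma adjusted p = 0.569).

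Known targets of the microRNA family with the AAGUGCU seed gave no call between the colonies: all 20 were measured, the median was 0.132, 0 passed and 1 was lower in colony 1 at an unadjusted p under 0.05. Cdkn1a, the cell cycle inhibitor p21, had 297 and 252.2 CPM in colony 1, 499.3 and 373.1 CPM in colony 2 and 158.6 to 226.7 CPM in WT. Both colonies were above WT, colony 2 the higher (log2 difference -0.66, limma adjusted p = 0.513). Lats2, a Hippo pathway kinase, had 21.6 and 18.2 CPM in colony 1 and 10.5 and 18.1 CPM in colony 2, with 6.98 to 10.97 CPM in WT (log2 difference 0.52, limma adjusted p = 0.879).

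The p53 list, 28 genes with a median of 0.257, also had 0 calls. Trp53 itself had 145.9 ± 27.1 CPM in colony 1 and 54.7 ± 16.4 CPM in colony 2 (SD, n = 2 each; log2 difference 1.43, limma adjusted p = 0.294). Bax, a p53 target that promotes apoptosis, had 17.5 and 10.5 CPM against 45.0 and 36.2 CPM (log2 difference -1.56, limma adjusted p = 0.287, and 0.0216 without the library that stood apart). Trp53 and Bax thus had opposite signs, but 20 of the 28 genes on the list were higher in colony 1 by sign, beside 56.8% over all genes. At an unadjusted limma p under 0.05, 2 were higher and 3 lower, beside 4.23% and 4.7% of all genes. Among 40 cell cycle genes, with a median of 0.203 and 0 calls, Cdk1, the mitotic kinase, had 505.3 and 466.7 CPM in colony 1 and 134.4 and 236.7 CPM in colony 2 (log2 difference 1.44, limma adjusted p = 0.632, and 0.0254). The library left out moved with colony 2 in both Bax and Cdk1, at 42.1 CPM against 13.8 CPM in its partner and at 39.6 CPM against 652.8 CPM.

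Genes of the 2-cell-like state, a rare condition of cultured pluripotent cells, had the highest list median, 1.424, over the 10 measured of 27. By sign 9 were higher in colony 1, 5 of them at an unadjusted p under 0.05, and 0 passed the adjusted test. Over all genes 56.8% were higher in colony 1 by sign and 4.23% at an unadjusted limma p under 0.05. For 7 of the 10, whole reads could not be recovered or were 0 in every colony library. Several are near-identical copies, so their levels are uncertain and the counts may not stand for separate genes. Zscan4d, a telomere-associated zinc finger gene of this state, was 1.85 and 1.11 above the WT mean on the log2 scale in colony 1 and -2.72 and -3.66 in colony 2 (log2 difference 4.67, limma adjusted p = 0.281). Tmem92, another marker of the state, was at 0.90 and 0.72 in colony 1 and -2.86 and -1.86 in colony 2 (log2 difference 3.18, limma adjusted p = 0.142, and 0.0244 without the library that stood apart). In both genes both libraries of colony 2 were below the WT range.

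The remaining lists gave 0 calls each. Germline genes had a median of 0.468 over 42 genes, interferon response genes 0.516 over 39, FGF and ERK pathway genes 0.369 over 21, Nodal, BMP and TGF-beta genes 0.23 over 23 and Wnt genes 0.174 over 19. LIF and STAT3 genes were at 0.055 over 15, glycolysis and hypoxia genes at 0.091 over 25, stress genes at 0.126 over 26 and formative or primed state genes at -0.013 over 19. Lineage markers were at 0.279 for primitive endoderm (12 genes), -0.025 for definitive endoderm (5), 0.464 for mesoderm (13), 0.094 for neuroectoderm (16) and 0.102 for trophoblast (16). The largest difference of the interferon list was that of Gbp2: this gene, encoding an interferon-induced GTPase, had 12.8 and 29.3 CPM in colony 1 and 1.97 and 8.11 CPM in colony 2 (log2 difference 2.23, limma adjusted p = 0.625).

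Y-linked genes were read in both colonies. Ddx3y, an RNA helicase, had 49.8 and 39.8 CPM in colony 1 and 47.8 and 52.4 CPM in colony 2, and Eif2s3y, a translation initiation factor subunit, had 17.7 and 16.7 CPM against 10.8 and 19.3 CPM. The histone demethylase gene Uty had 9.47 and 7.21 CPM against 6.52 and 14.8 CPM, and the ubiquitin-activating enzyme gene Uba1y 8.84 and 9.28 CPM against 4.63 and 6.86 CPM. For the first 3 genes the colonies overlapped, and 0 of the 4 passed. Xist, the noncoding RNA of X inactivation, had 0 and 0.251 CPM in colony 1, 4.35 and 0.468 CPM in colony 2 and 0 in the WT libraries, from 4 and 111 reads (limma adjusted p = 0.632).

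The count of 10 between the miR-290KO colonies is set beside those of the other genotypes in the same fit. Between the double KO colonies 370 genes passed (2.9%), 137 higher in colony 1 (1.07%) and 233 lower (1.82%). Between the miR-302KO colonies 0 genes passed by limma, with 2021 at an unadjusted p under 0.05 (15.8%), where one of the libraries is the one that stood apart. Libraries within each miR-302KO colony also differed in Ddx3y (0 and 12.99 CPM, and 12.16 and 0.295 CPM). The count of 0 therefore cannot tell how far these 2 colonies differ. The counts rest on the same pooled spread, and the difference between genotypes in this respect was not tested. Of the 10 genes, 1 also passed between the double KO colonies: Galnt1, with a log2 difference of -0.80 there (limma adjusted p = 0.0205). Of the 215 genes without that library, 6 did so, which is 2.8% of the 215 and 1.6% of the 370.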

How the data were processed

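QuantSeq 3' libraries (200 ng of total RNA, single-end reads of 50 bases, per the labels' protocols) were processed by the submitters. Their processing notes name mm10, Trim Galore 0.66, STAR, Salmon 1.4.0, FastQC 0.11.9, MultiQC, limma and DESeq2 1.34.0, without roles. For 12778 genes the authors deposited log2 values. These proved to be log2 CPM with a small prior (2.41 reads on average) plus a constant per gene. In 12233 genes (95.7%) the values of at least 13 of 19 libraries came back to whole reads within 0.02, and 99.7% of their values were whole. CPM are these reads on the scale of the deposited values, and 545 genes have none. In that matrix 6 columns of no library of this series were not used.

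Every gene was tested with limma 3.58.1 (R 4.3.3, lmFit, eBayes with trend) on the deposited log2 values. The fit had 19 libraries in 9 groups, each labelled as 1 line, and 10 residual degrees of freedom. The contrast was colony 1 minus colony 2, with calls at 0.05 after Benjamini-Hochberg adjustment. A constant per gene leaves differences unchanged, and the prior shrinks those of weak genes. No count test was run, since the main values are log2 values. In 5 simulated runs with 200 changed genes, 4.6% of calls were false. The simulated spread of a gene was the same in every library. In the data, estimated sample weights ran from 0.13 in miR-302KO iPSC colony 1 to 2.58 in double KO colony 2, so the rates may differ there. Names and positions came from RefSeq on GRCm38.p6: 12143 genes matched by symbol, 582 by synonym, 53 did not. Tables and figures used Python 3.11.15, pandas 2.3.3, numpy 2.4.6, scipy 1.17.1 and matplotlib 3.10.9.

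The comparison, the gene lists and the library left out were chosen with earlier results of these data known. Named by rule were the 12 largest differences each way among called genes without overlap (10 were called in all), called list members, the 6 most expressed called genes each way, Y-linked genes, Xist and 6 pluripotency genes; every other gene was chosen after its values were seen. Alternatives changed the libraries in the fit, the spread, the scaling, the pseudocount (0.5 or 2 CPM), the filter (10 or 50 reads) and the depth, or used the replicate number as a block.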

Additional observations from a re-analysis of the deposited data

Results flagged for a closer look

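The 10 genes that passed the test are listed because they differ between 2 lines of one genotype under the same contrast. Their log2 differences, colony 1 minus colony 2, were 7.001 for Meg3, 6.591 for Mirg and 5.299 for Rian on chromosome 12, -1.575 for Wac, -1.537 for Osbpl1a, -1.175 for Elp2, -1.068 for Galnt1 and -1.043 for Usp14 on chromosome 18, -2.434 for Raly and -1.376 for 2810417H13Rik.

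Other named genes are listed because both libraries of one colony lay above all WT libraries and both of the other below them. These were 6430411K18Rik (3.779), Yy1 (0.475), Cyb5a (1.495), Timm21 (2.288), Cyb5r3 (2.002), Tmem92 (3.176) and Stat3 (1.06), each with its log2 difference in brackets. For Yy1 and Stat3 the margin was small. The lower colony 1 library had 121.2 and 80.24 CPM, beside 120.9 and 80.08 CPM in the highest WT library. Over all 12778 genes, 287 had the colonies on opposite sides of WT. None of the named genes listed here passed the test between the colonies with all libraries in the fit, and the difference in direction from WT was not tested. The window of chromosome 18 from 80 to 90 Mb had a median of 0.877 with colony 1 above and colony 2 below the WT mean, which was not tested either.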

How the results depend on the processing

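Of the 10 genes, Meg3, Rian and Mirg passed in all 18 alternatives, with log2 differences of 6.22 to 7.36, 4.52 to 5.63 and 3.11 to 6.98. The 10 genes gave 180 values under the alternatives, of which 50 lost their call and 0 changed sign. The count of genes called was 10 and became 8 with only the 4 colony libraries in the fit, which kept 3 of the 10 and none of the 7 lower genes, 23 with only miR-290KO and WT iPSC (7 of the 10), 215 without miR-302KO colony 1 library 2, 6 with no trend of the spread, 69 with sample weights and 17 with a pseudocount of 2 CPM. Leaving out 1 colony library gave 4 to 7 (4 without colony 1 library 2 or colony 2 library 1, 6 without colony 1 library 1). Centring each library per chromosome gave 8 calls, 75.0% of them higher in colony 1 against 30.0% before, and 5 of the 10. The cause of these changes was not tested. Between the miR-302KO colonies 12 genes passed with no trend, and between the double KO colonies 2131 with sample weights.

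With the replicate number as a block, the 4 libraries gave 516 calls, which include the 10, and all libraries gave 9. The labels do not say that a number marks a shared batch. The deviations correlated at 0.125 across genes, and 2 pairs cannot decide whether libraries of one number share a batch.

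Among genes that did not pass, the sign changed for 7 named here with the range over the 4 fits that leave out a library: Zfp42 (-0.07 centred on medians, -0.028 centred per chromosome, -0.075 thinned, -0.321 without colony 1 library 1 and -0.062 without colony 2 library 1, up to 0.34), Dio3 (-0.022 centred per chromosome, -0.129 without colony 1 library 1, up to 0.457), Klf4 (0.374 without colony 1 library 2, 0.056 without colony 2 library 1, down to -0.858), Eif2s3y and Trim28 (-0.168 and 0.161 without colony 2 library 1, up to 0.666 and down to -0.595), and Uty and Ppp2r5c (0.336 and 0.024 without colony 2 library 2, down to -0.831 and -0.238). Depth limits colony 2 library 2 most, at 6435811 reads.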

Other observations

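Several genes outside the lists and regions described had separate colony libraries and passed in the fit without miR-302KO colony 1 library 2 but not with every library. Cyb5r3, a cytochrome b5 reductase, had 230.7 and 268.7 CPM in colony 1 and 55.7 and 69.1 CPM in colony 2 (limma adjusted p = 0.0694, and 2.6e-05 without that library). Cyb5a, whose product this reductase serves, also had its lower level in colony 2. Gldc, the glycine decarboxylase, had 26.4 and 26.0 CPM in colony 1 and 4.02 and 5.61 CPM in colony 2 (limma adjusted p = 0.287, and 0.0167), and Tkt, the transketolase of the pentose phosphate pathway, had 126.2 and 115.7 CPM against 443.7 and 336.8 CPM (0.281 and 0.0244). In all 3 the library left out was near colony 2 rather than its partner: it had 74.4 CPM of Cyb5r3 against 237.7 CPM, 3.34 CPM of Gldc against 21.5 CPM and 272.6 CPM of Tkt against 93.6 CPM.

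Hmga2, a chromatin protein of early development, had 81.7 and 68.6 CPM in colony 1 and 21.5 and 26.4 CPM in colony 2 (limma adjusted p = 0.184, and 0.0309 without that library). Pecam1, a surface molecule of pluripotent cells, had 92.9 and 84.4 CPM against 43.3 and 36.3 CPM (0.142 and 0.0244). Erf, a repressor downstream of ERK, had the opposite order, with 61.6 and 52.7 CPM against 207.6 and 161.9 CPM (0.0694 and 0.0161). For these 3 genes the library left out was not near colony 2, at 109.4 CPM of Hmga2, 62.2 CPM of Pecam1 and 54.1 CPM of Erf.

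Some values set both colonies apart from WT rather than from each other. The median log2 difference from the WT mean over chromosome 8 was 0.474 and 0.436 in colony 1 and 0.363 and 0.472 in colony 2. It was -0.102 to 0.178 in the WT libraries and 0.145 in the miR-290KO ESC. The miR-302KO lines were also positive, at 0.263 in ESC and 0.144 and 0.164 in iPSC colonies 1 and 2. The double KO colonies had -0.078 and -0.045. Over all genes the medians were 0.211 and 0.15 in colony 1 and 0.06 and 0.169 in colony 2. For the miR-302KO lines they were 0.047, -0.196 and 0.006 in the same order. The 4 Y-linked genes had medians of 2.301 and 1.946 in colony 1 and 1.697 and 2.656 in colony 2, against -0.021 to 0.095 in WT. Chromosome copies were not measured, and their part in these values was not tested.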
